A study of Bos taurus with 15 samples.

Results

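This experiment compared the transcripts of cultured bovine retinal endothelial cells that received an siRNA against FLVCR2 or a scrambled siRNA. It was chosen from the sample titles: 3 libraries of cells that received FLVCR2 siRNA (titles siF with a number) against 4 that received a scrambled siRNA (Scr with a number), 7 of the 15 libraries of the series. The other 8 libraries belong to a separate succinylacetone experiment with its own control and were not used. Both groups were described as endothelial cells of the cattle retina, and polyA RNA was sequenced from each. The labels name no genotype, passage, siRNA sequence, dose or time, and they do not say whether replicates were grown separately, so the p-values here measure the spread between these libraries, which may be technical. The title places the question in the control of cellular heme by FLVCR2 and its bearing on retinal angiogenesis.

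FLVCR2 is a membrane transporter of the major facilitator superfamily that has been described as a carrier of heme and of choline. It is known in endothelial cells of the central nervous system, and inherited loss of the gene causes Fowler syndrome, in which brain vessels form abnormally. A scrambled siRNA passes through the same delivery and silencing machinery without a matched transcript, so the comparison sets one siRNA against another and not against untouched cells.

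The labels disagree about the target in part. The treatment label of FLVCR2 siRNA library 1 reads siFLVCR2, while those of libraries 2 and 3 read siFLVCR3 and siFLVCR4. All of them were kept in the FLVCR2 siRNA group because the titles number them as replicates and the design text names FLVCR2 alone. The genes are listed by cattle Ensembl ID, and 0 of the 27607 IDs matched a name in the reference table, so the level of FLVCR2, the identity of the cells by endothelial markers and the members of heme, iron, choline, vessel growth and other pathways were not analysed here. Genes are therefore described by their ID, level and change.

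Libraries held between 19031911 and 29297141 counts with scrambled siRNA and between 27927005 and 34754170 with FLVCR2 siRNA. Depth thus leaned toward the FLVCR2 siRNA group, although the ranges overlapped. Between 15247 and 15625 IDs had at least 1 count in a library. Counts were scaled to CPM (counts scaled to a common library total, adjusted by TMM, edgeR's correction for composition). In bulk RNA, fewer cells of a type and less RNA per cell cannot be told apart.

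A small set of genes differed between FLVCR2 siRNA and scrambled siRNA, mostly upward with FLVCR2 siRNA and mostly by less than 1.5-fold. Of 12976 genes tested, 231 (1.78%) were called, meaning a Benjamini-Hochberg adjusted p under 0.05 in edgeR's quasi-likelihood test. Among them 175 rose (1.35% of genes tested) and 56 fell (0.432%). The median size among genes that rose was 1.30-fold, with lower and upper quartiles of 1.23-fold and 1.41-fold. Among genes that fell the median was 1.32-fold, with quartiles of 1.26-fold and 1.61-fold. In 148 of the 175 rises (84.6%) and 38 of the 56 falls (67.9%) the change was under 1.5-fold. Over all genes tested the median log2 fold change was -0.01.

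**Figure D1:**
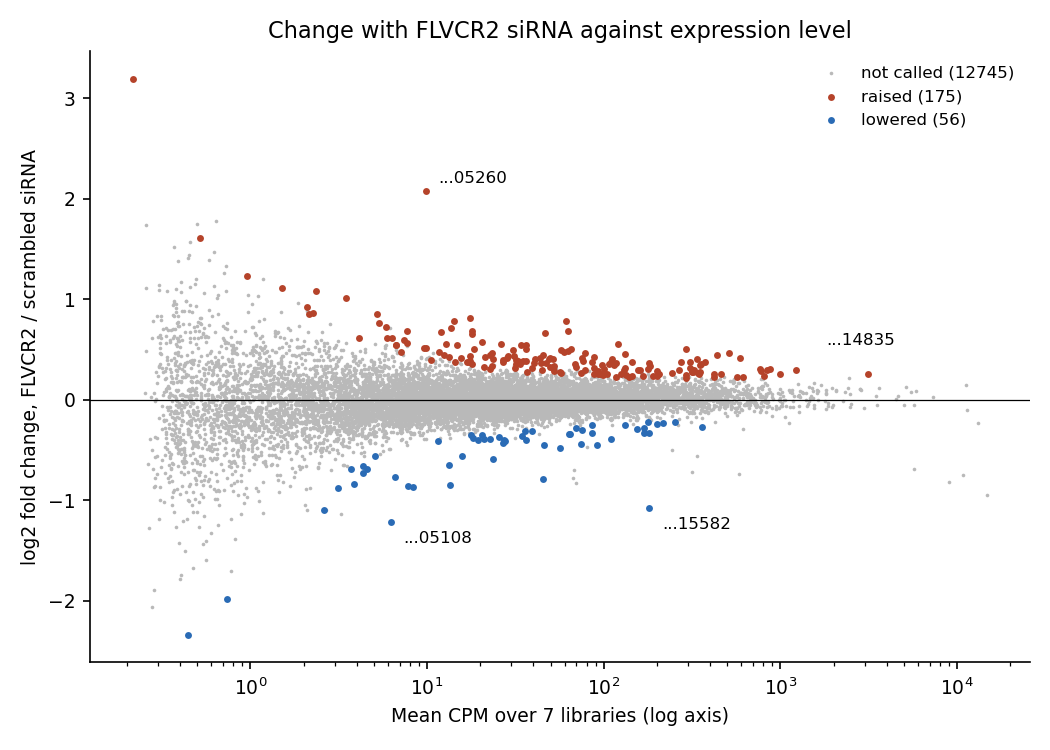
Each point is a gene, with its mean CPM over the 7 libraries on a log axis and its log2 fold change of FLVCR2 over scrambled siRNA on the vertical axis. The 175 red points rose and the 56 blue points fell at an edgeR adjusted p under 0.05, the 12745 grey points did not pass, and the IDs described in the text are marked by their last digits.

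The genes that rose tended to be more abundant than those that fell, in description. The median level was 56.8 CPM for the rises, 27.4 CPM for the falls and 22.4 CPM for all genes tested. At least 100 CPM was reached by 63 rises and 12 falls, and 1000 CPM by 2 rises and 0 falls. Together the genes that rose took 2.49% ± 0.0299 of all counts with scrambled siRNA (SD, n = 4) and 3.11% ± 0.0208 with FLVCR2 siRNA (SD, n = 3). Those that fell took 0.393% ± 0.0078 and 0.309% ± 0.00833. These shares describe genes that were chosen on the same libraries and carry no test.

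Among genes averaging 5 CPM or more with no overlap between groups, the largest rise was in ENSBTAG00000005260, a gene of low level in these cells. Its level was 4.84, 3.78, 3.84 and 4.13 CPM in scrambled siRNA libraries 1 to 4, resting on 81 to 123 counts. It was 18.2, 15.4 and 18.7 CPM in FLVCR2 siRNA libraries 1 to 3, resting on 434 to 627 counts. Every FLVCR2 siRNA library lay more than 3-fold above every scrambled library. The fold change was 4.21 (log2 2.07, SE 0.118, 95% interval 1.83 to 2.32, edgeR adjusted p = 7.66e-11). No other gene averaging 5 CPM or more was called with a rise of 2-fold or more.

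The rise with the largest gain in CPM was in ENSBTAG00000014835, also the most abundant of the 231 genes. Its level was 2849, 2952, 2858 and 2956 CPM in scrambled siRNA libraries 1 to 4. It was 3435, 3484 and 3445 CPM in FLVCR2 siRNA libraries 1 to 3. The groups did not overlap, and both spanned narrow ranges beside the gap between them. The mean difference was 551.1 CPM, and the change was 1.19-fold (log2 0.25, SE 0.0556, 95% interval 0.14 to 0.37, edgeR adjusted p = 0.0155). This call depended on single libraries: its adjusted p was 0.0652 without scrambled siRNA library 3 and 0.163 without FLVCR2 siRNA library 2, while the log2 fold change stayed at 0.25 in both.

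The largest fall under the same conditions was in ENSBTAG00000005108. Its level was 8.10, 8.66, 7.64 and 8.49 CPM in scrambled siRNA libraries 1 to 4, resting on 154 to 253 counts. It was 3.56, 3.20 and 3.83 CPM in FLVCR2 siRNA libraries 1 to 3, resting on 90 to 123 counts. The highest FLVCR2 siRNA library lay well under the lowest scrambled library. The change was a 2.33-fold fall (log2 -1.22, SE 0.132, 95% interval -1.50 to -0.95, edgeR adjusted p = 7.67e-06).

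The fall with the largest loss in CPM was in ENSBTAG00000015582, an abundant gene that lost more than any other lowered gene on this scale. Its level was 219.3, 239.3, 237.5 and 241.0 CPM in scrambled siRNA libraries 1 to 4. It was 110.6, 111.8 and 110.6 CPM in FLVCR2 siRNA libraries 1 to 3. The FLVCR2 siRNA libraries agreed within about 1 CPM, and each lay far under every scrambled library. The group means were 234.3 ± 10.1 (SD, n = 4) and 111.0 ± 0.712 CPM (SD, n = 3), which gave a 2.11-fold fall (log2 -1.08, SE 0.0599, 95% interval -1.20 to -0.95, edgeR adjusted p = 7.66e-11). It rested on 3149 to 7186 counts in each library.

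**Figure D2:**
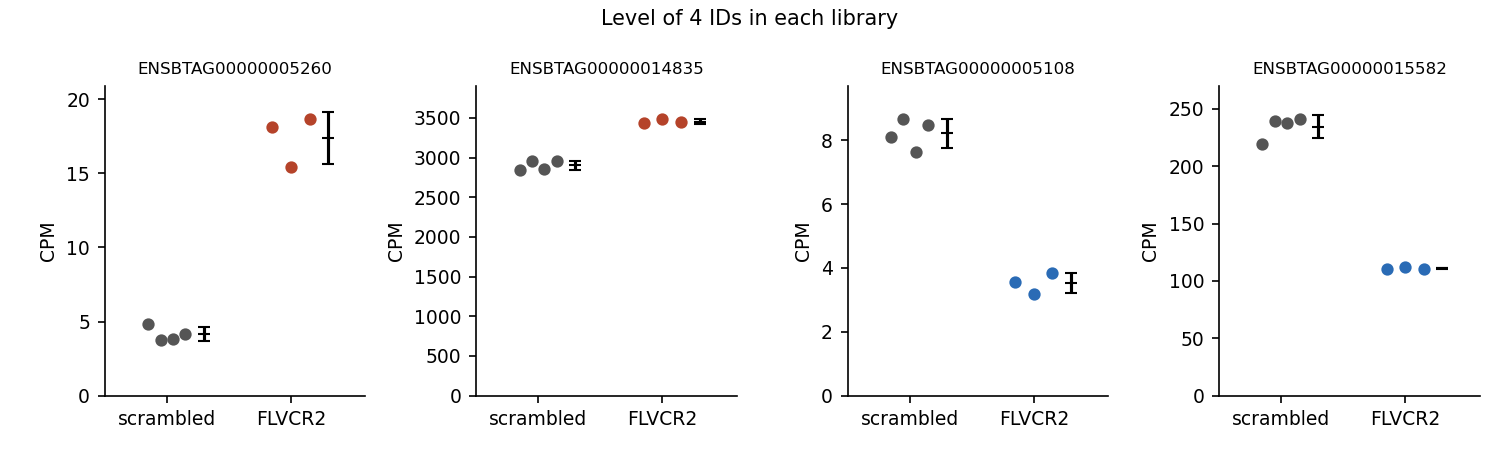
Each panel shows the CPM of an ID in the 4 scrambled (grey) and 3 FLVCR2 siRNA libraries (red where the gene rose, blue where it fell), with axes from 0 and the group mean ± SD at the right of each group. The groups are apart in every panel because only IDs without overlap could be chosen. The fitted change runs from 4.21-fold in ENSBTAG00000005260 to 1.19-fold in ENSBTAG00000014835.

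Outside these IDs, every called change of at least 2-fold was in a gene of low level. Changes of at least 2-fold comprised 7 called rises (0.0539% of genes tested) and 5 called falls (0.0385%), and 9 of these 12 had a mean under 5 CPM. The other 3 were ENSBTAG00000005260, ENSBTAG00000005108 and ENSBTAG00000015582. The largest fitted rise of all was in a gene with 3, 0, 1 and 0 counts in scrambled siRNA libraries 1 to 4 and 16, 13 and 11 counts in FLVCR2 siRNA libraries 1 to 3. The largest fitted fall was in a gene with 18, 13, 14 and 17 counts against 10, 1 and 1. Counts this low separate the groups but leave the size of the change poorly fixed, with a 95% interval for the log2 fall from -3.58 to -1.18. Not all of the 9 genes were this sparse: the least changed of them, a 2.02-fold rise, rested on 41 to 165 counts in each library. IDs without counts in 1 group were barely detected in the other: 15 IDs had 0 counts in all 4 scrambled libraries and at least 1 in each FLVCR2 siRNA library, with at most 12 counts over the 7 libraries, and 10 IDs showed the converse, with at most 14.

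At 1.5-fold or more, 27 genes rose (0.208%) and 18 fell (0.139%). A mean of at least 5 CPM was found in 17 and 9 of these, and a mean of at least 50 CPM in 2 and 1. The 2 rises at that level were of similar size. The larger went from 48.8, 48.0, 43.1 and 47.8 CPM to 78.0, 77.5 and 85.9 CPM, a 1.72-fold rise (log2 0.78, SE 0.068, edgeR adjusted p = 3.26e-07). The other went from 58.0, 46.6, 46.6 and 49.0 CPM to 78.2, 79.6 and 83.3 CPM, a 1.61-fold rise (log2 0.69, SE 0.0743, edgeR adjusted p = 7.67e-06). Both sets of libraries were apart. In each gene scrambled siRNA library 1 was the highest of its group, by a wider margin in the second. The fall at that level is ENSBTAG00000015582, described above.

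Among abundant genes the rises were smaller, and they differed in how regular they were across libraries. A gene at 441.5 ± 28.8 CPM with scrambled siRNA (SD, n = 4) stood at 610.4 ± 20.6 CPM with FLVCR2 siRNA (SD, n = 3), a 1.38-fold rise (edgeR adjusted p = 9.47e-05). Another went from 518.0 ± 20.02 CPM to 688.8 ± 24.6 CPM (SD, n = 4 and 3), a 1.33-fold rise (edgeR adjusted p = 0.000175). Both changes were several times the SD of either group. Other abundant rises were less regular. A gene at 1120, 1186, 1100 and 1053 CPM with scrambled siRNA stood at 1487, 1367 and 1250 CPM with FLVCR2 siRNA (edgeR adjusted p = 0.0138). In another the groups overlapped, with 319.5 CPM in FLVCR2 siRNA library 3 and 319.8 CPM in scrambled siRNA library 2.

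Separation of the libraries was nearly complete among called genes, which were called on these same libraries, so it is description only. The libraries of the groups did not overlap in 173 of the 175 rises or in any of the 56 falls. Among the 12976 genes 12.1% were separated in this way, 6.97% with FLVCR2 siRNA higher and 5.16% lower, so separation alone was common and most separated genes (1344) were not called. Both rises with overlap came from FLVCR2 siRNA library 3, which reached 6.60 CPM in a gene where scrambled siRNA library 2 had 7.08 CPM, and 319.5 CPM where the same scrambled library had 319.8 CPM. The libraries labelled siFLVCR3 and siFLVCR4 moved as far as the one labelled siFLVCR2. Relative to the scrambled mean, the median log2 deviation of the genes that rose was 0.37, 0.38 and 0.35 in FLVCR2 siRNA libraries 1 to 3, and that of the genes that fell was -0.42, -0.41 and -0.40. These genes were chosen with all 3 libraries, so the values describe and do not test the labels.

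The precision of the comparison depended on the level of the gene. Genes were ranked by mean CPM and split into 4 bins of the same size. The 95% interval of the fold change lay within 1.5-fold of no change in 32.4% of genes in the lowest bin, up to 5.84 CPM. The share was 96.6%, 99.1% and 99.1% in the next 3 bins. Over all genes tested it was 81.8%, and 92.5% had an interval within 2-fold. For most genes above 5.84 CPM, a change of 1.5-fold or more in either direction thus lay outside the interval, whereas in the lowest bin many intervals still held such a change.

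The number of calls followed the same order. In the lowest bin 12 genes rose and 10 fell, and the smallest called change was 1.47-fold. In the highest bin, from 63.4 CPM, 81 rose and 20 fell, and changes down to 1.16-fold were called. Rises and falls were about equally frequent among low genes, and rises led in the other 3 bins. Whether the share of rises differs between bins was not tested.

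**Figure D3:**
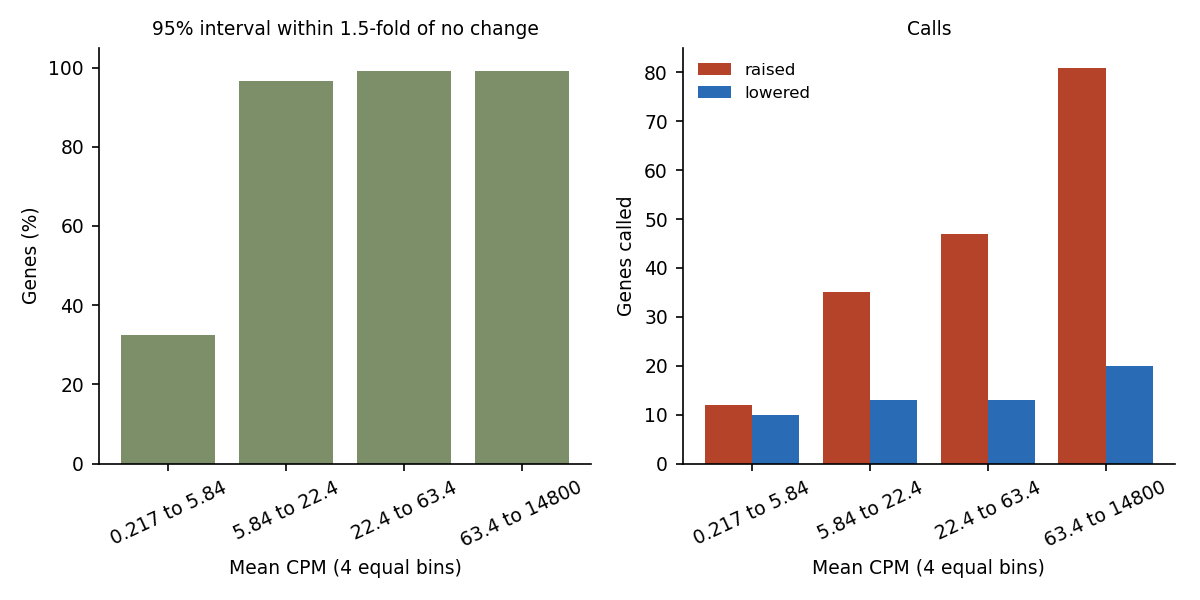
Genes are split into 4 bins of equal size by mean CPM. The left panel gives the percent of genes whose 95% interval lies within 1.5-fold of no change, from 32.4% in the lowest bin to 99.1% in the highest, and the right panel gives the genes that rose (red, 12 to 81) and fell (blue, 10 to 20).

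Across all genes the groups differed little more than replicates did. The root mean square difference in log2 CPM between a scrambled library and the others of its group averaged 0.238 to 0.248, and between the same libraries and the FLVCR2 siRNA libraries 0.243 to 0.260. For FLVCR2 siRNA libraries the values were 0.211 to 0.226 within the group and 0.251 to 0.255 to the scrambled libraries. The groups were separated on the first principal component (25.2% of variance), with scrambled libraries at -9.58, -9.12, -8.06 and -4.44 and FLVCR2 siRNA libraries at 10.3, 12.1 and 8.82. The second component, with 20.4%, spread libraries within both groups, from -10.7 to 9.81 and from -7.32 to 9.48.

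The most abundant transcripts varied between scrambled libraries, and their share of counts was lower in every FLVCR2 siRNA library. The 10 most abundant genes took 10.8%, 11.9%, 10.3% and 8.65% of the counts in scrambled siRNA libraries 1 to 4 and 8.07%, 8.31% and 8.27% in FLVCR2 siRNA libraries 1 to 3. All scrambled libraries were higher, and scrambled siRNA library 4, the nearest on the first principal component, was also the nearest here. The difference was -2.20 percentage points, and the exact permutation test (two-sided) gave p = 0.0571. That is the smallest p that 35 arrangements of 7 libraries can give, so this test could not fall under 0.05 and decides nothing here. The most abundant of them took 1.85% ± 0.581 of counts with scrambled siRNA (SD, n = 4; 1.08% to 2.41%) and 0.973% ± 0.0978 with FLVCR2 siRNA (SD, n = 3), a log2 fold change of -0.95 that did not pass the test (edgeR adjusted p = 0.33). None of the 10 was called, with edgeR adjusted p from 0.125 to 0.944. With these 10 genes left out and library totals recomputed, 231 genes were called again, and they were the same 231. None of the 10 had been called, and both fits used TMM, so little change was possible. This refit therefore does not test whether composition affected the calls.

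**Figure D4:**
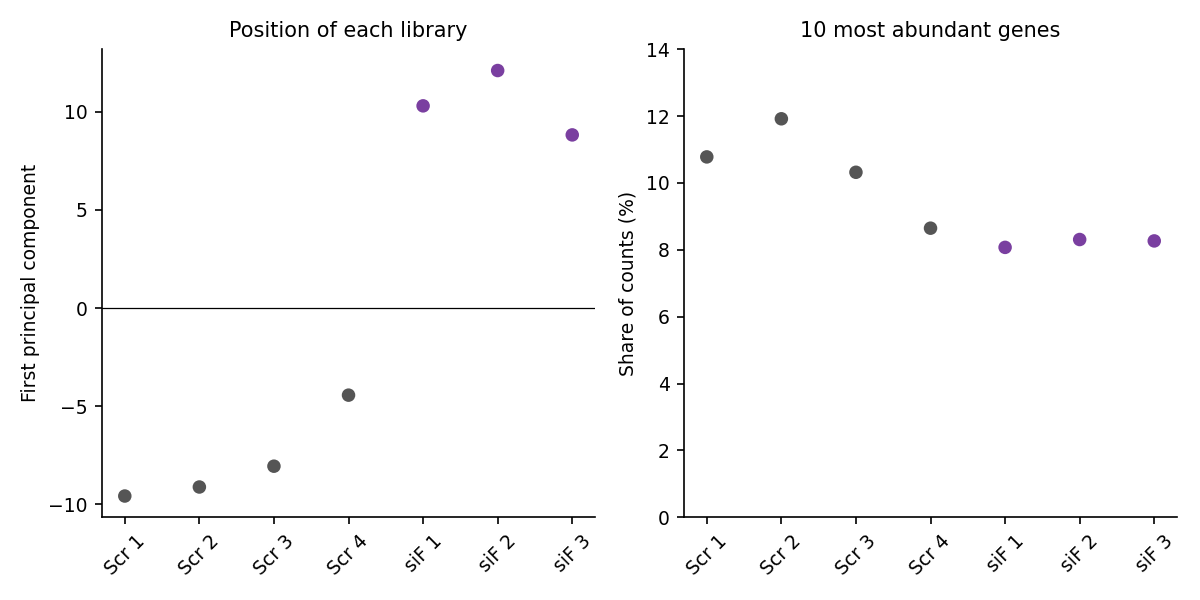
Each point is a library, grey for scrambled siRNA (Scr) and purple for FLVCR2 siRNA (siF). The left panel shows the first principal component of log2 CPM, from -9.58 to -4.44 in scrambled and 8.82 to 12.1 in FLVCR2 siRNA libraries, and the right panel the percent of counts in the 10 most abundant genes, with scrambled siRNA library 4 (8.65%) nearest to the FLVCR2 siRNA libraries.

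How many genes were called depended on which libraries were used. With each library left out in turn, the call held in all 7 fits for 75 genes (59 rises and 16 falls), and in none of them for 4. Of the 45 genes changed at least 1.5-fold 23 were called in all 7 fits (51.1%), and of the 186 smaller changes 52 (28.0%). The 59 rises had a median size of 1.37-fold and a median level of 61.3 CPM, and the 16 falls 1.54-fold and 34.6 CPM. ENSBTAG00000005260, ENSBTAG00000005108 and ENSBTAG00000015582 were called in every fit.

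Among single libraries, FLVCR2 siRNA library 2 had the largest effect on the count. Without it 84 genes were called (66 rose and 18 fell), 80 of them among the 231. Without scrambled siRNA library 3 the count was 150 (115 and 35), 144 of them among the 231. With any of the other 5 libraries left out, between 163 and 217 genes were called. With FLVCR2 siRNA library 1, whose treatment label alone names FLVCR2, set by itself against the 4 scrambled libraries and assumed to vary as they do, 68 genes were called (54 rose and 14 fell), 52 of them among the 231.

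**Figure D5:**
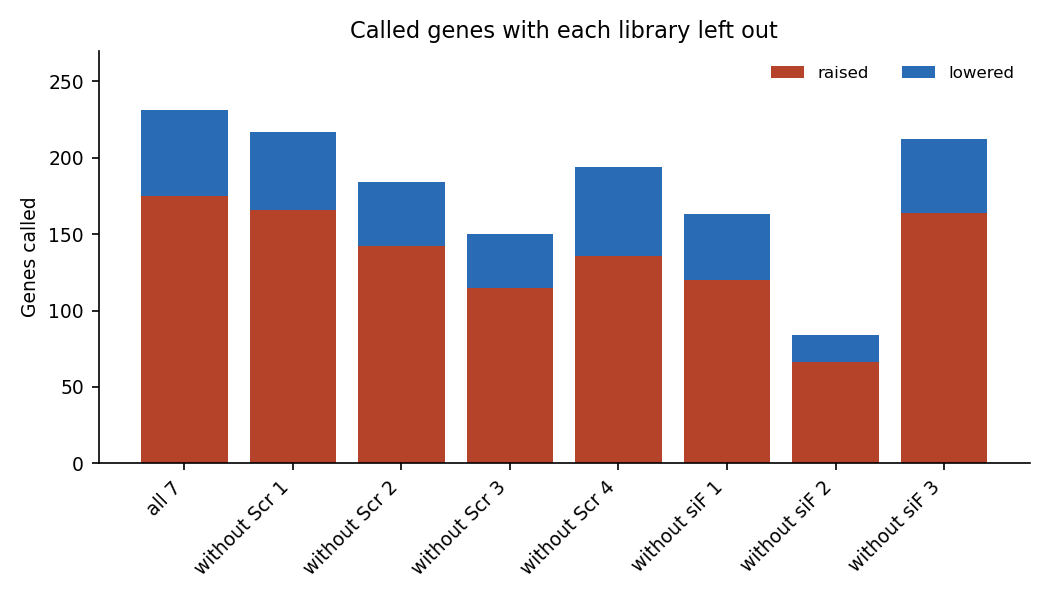
Bars show the number of genes that rose (red) and fell (blue) at an edgeR adjusted p under 0.05 with all 7 libraries and with each library left out. The total is 231 with all libraries and ranges from 84 without FLVCR2 siRNA library 2 to 217 without scrambled siRNA library 1.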

How the data were processed

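The authors deposited raw counts (whole numbers) by cattle Ensembl gene ID, with 1 table for the 7 siRNA libraries. featureCounts and DESeq2 are named in the submitters' processing notes, where the builds hg38 and ARS-UCD1.2 are listed without a role. The column headers end in subread.BAM, which names the Subread aligner without a version. The strand setting and annotation release were not stated in the labels or headers used here. Overlapping, antisense or near-identical genes may share reads. In R 4.3.3, edgeR 4.0.16 was run with TMM factors, filterByExpr by group and the robust quasi-likelihood test without covariates, and p-values were adjusted over all genes tested. Standard errors are the absolute log2 fold change over the square root of F. The 95% intervals are centred on the log2 fold change before edgeR's shrinkage for low counts. They use a standard error of that value and the test's degrees of freedom. The printed fold changes are shrunken and need not lie exactly at the centre. CPM values are TMM-scaled. Library distances and components use log2(CPM + 0.5). The biological coefficient of variation was 0.0733. No pair of replicates looked like 1 library deposited again (chi-square per degree of freedom 7.5 to 35.8 using genes whose counts summed to 20 or more, where 1 is counting noise). This does not show that they came from separate cultures.

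In simulated counts of 12976 genes, 41.8% of 1.25-fold, 80.6% of 1.5-fold and 90.9% of 2-fold changes were called, and 9 of 12776 unchanged genes. These counts were drawn independently from the spread and library totals fitted here and tested with the same model. Variation that many genes share within a library was not simulated. The rates therefore check the code under that model and do not give the error rate of the real comparison. Without gene names, 2 IDs that rose and 2 that fell were chosen: the largest fold change and the largest difference in mean CPM among the rest, in each direction, among called genes averaging 5 CPM or more without overlap. Other genes with values were picked after their values were seen. The comparison, lists and rules were chosen with earlier results of these data known. Alternatives included DESeq2 1.42.0, limma 3.58.1 voom with quality weights, other factors and filters, a replicate block and each library left out. Figures used matplotlib 3.10.9.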

Additional observations from a re-analysis of the deposited data

Results flagged for a closer look

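In 12 sets of values over the 4 scrambled siRNA libraries, 2 held a library far from the others relative to the range of the set (Dixon's Q above 0.829). Chance marks about 1 set in 20 at this cutoff if the values are independent. The sets overlap here, and the distances share pairs of libraries, so that rate is only a rough guide. The level of ENSBTAG00000015582 was 219.3 CPM in scrambled siRNA library 1 and 237.5 to 241.0 CPM in the other 3, all above the FLVCR2 siRNA libraries. The root mean square distance of scrambled siRNA library 1 to its own group was 0.248, against 0.238 to 0.239 for the other 3. This library was also the shallowest of the 7, with 19031911 counts. Without it 217 genes were called, and the part of depth in its distance was not tested.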

How the results depend on the processing

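The number of genes changed was 471 with limma voom and quality weights, which change both the test and the weight of each library (331 rose, 140 fell) and 385 with no low-count filter (285 and 100). It was 108 at an adjusted p under 0.01 (85 and 23) and 12 with a 2-fold minimum (7 and 5), which lower counts by construction. Library 1 of FLVCR2 siRNA alone gave 68 (54 and 14), with fewer samples. With each library left out the counts ran from 84 to 217 in all, 66 to 166 for rises and 18 to 58 for falls. For the remaining shifts the cause was not tested. DESeq2 gave 301 genes, 224 of them among the 231, of which 6 had no adjusted p there. RLE and upper-quartile factors gave 230 and 228, the stricter filter 214. Rises made up 69.3% to 79.4% of calls in these fits, outside the 2-fold minimum.

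With the replicate block 277 genes were called (192 rose and 85 fell), 190 of them among the 231. The labels do not say that numbers pair libraries: deviations of same-numbered libraries correlated at 0.00477 to 0.0215, and 0 of 3 FLVCR2 siRNA libraries correlated best with their own number. Leaving out the 10 most abundant genes and using library 1 alone were chosen after seeing the data.

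Of the 4 printed IDs, 3 were called in all 16 alternatives, and ENSBTAG00000014835 in 13, with adjusted p from 8.61e-06 to 0.328 and log2 fold changes from 0.24 to 0.26. The share of counts in the 5 and the 50 most abundant genes differed by -1.53 and -1.78 percentage points (exact permutation p = 0.0571 and 0.171), and without each library the difference for 10 genes ran from -2.79 to -1.70. Alternatives for the FLVCR2 level and the gene lists were not run, since no ID had a name. Small changes were hardest to call in low genes: the median standard error of the log2 fold change was 0.245 in the lowest of 4 bins of mean CPM and 0.0646 in the highest.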
